A study of Mus musculus with 10 samples.

Results

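The collagen genes of the first pharyngeal arch (PA1) were compared between wild-type and Grhl2-/- mouse embryos. They were taken as the rows of the count table whose symbol has the form of a collagen alpha chain (Col, a type number, a and a chain number), with 1 such gene not reported here, which gave 43 of the 22114 protein-coding genes. PA1 is the embryonic source of the jaws and the palate, and it holds a surface epithelium around a core of mesenchyme. One PA1 sample from each of 10 male E10.5 embryos on a C57BL/6 background was sequenced as a stranded total RNA library depleted of ribosomal RNA. The 5 wild-type embryos carried both normal alleles of Grhl2, which encodes an epithelial transcription factor, and the 5 Grhl2-/- embryos carried a null allele on both chromosomes in every tissue. The mutants came from a line kept by crossing heterozygotes, the arches were not separated into epithelium and mesenchyme, and no embryo received a treatment. In bulk samples of this kind, fewer cells of a type and less RNA per cell cannot be told apart.

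Between 22188454 and 28801378 reads were counted per arch, so that 3 reads correspond to between 0.104 and 0.136 CPM (counts scaled to library size after TMM normalization, a trimmed mean of log ratios). Such a floor covers counting error only. Grhl2 itself was at 36.1, 33.5, 40.5, 31.8 and 35.8 CPM in wild-type replicates 1 to 5 and at 5.56, 3.49, 2.804, 6.33 and 4.48 CPM in Grhl2-/- replicates 1 to 5, and the ranges did not overlap. The summed level of 10 surface epithelium markers lay between 344 and 462 CPM in wild-type arches and between 169 and 255 CPM in Grhl2-/- arches. At FDR below 0.01, 7 of the 10 were lower (Epcam, Cdh1, Krt5, Cldn4, Cldn6, Cldn7 and Esrp1), against 1.09% of all genes. Trp63, Krt8 and Krt18 were not called, with log2 fold changes of -0.24, -0.40 and -0.07. The paper reports GRHL2 binding at Cdh1, Epcam, Cldn4 and Esrp1 in PA1, so the sum does not measure the amount of epithelium alone. The summed level of 9 markers of neural tube and otic epithelium lay between 22.2 and 50.6 CPM in wild-type arches and between 65.4 and 133 CPM in Grhl2-/- arches. Of the 9, 2 (Pax8 and Fgf15) were higher at FDR below 0.01 and 5 at FDR below 0.05, against 0.879% and 3.84% of all genes. The 13 sensory neuron markers summed to 53.8, 43.7, 670, 1143 and 718 CPM in wild-type replicates 1 to 5 and to between 374 and 1477 CPM in the Grhl2-/- arches. Only wild-type replicates 1 and 2 lay outside the mutant range, 0 of the 13 markers were called, and no marker on these 3 lists was at 0 in all arches.

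Collagens are the main structural proteins of the extracellular matrix. Each molecule is a triple helix of 3 alpha chains with glycine at regular steps, and the chains of one molecule may come from the same gene or from different genes. Fibrillar collagens assemble into the striated fibrils that give mesenchyme and later cartilage, bone and skin their strength. Type IV collagen forms the network of the basement membrane, the sheet on which an epithelium such as that of PA1 rests. FACITs (fibril-associated collagens with interrupted triple helices) decorate the fibrils, and type VI collagen forms beaded microfilaments around cells. The remaining collagens include anchoring, short-chain and transmembrane members.

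A gene was tested with limma-voom if any arch held 10 or more counts of it, and FDR values were adjusted over all 14561 of them. Of the 43 collagen genes, 41 reached this minimum. The genes just inside it were Col28a1, with at most 10 counts in an arch, and Col6a6, with at most 11. The genes outside it were Col6a5, a chain of type VI collagen with at most 8 counts, and Col10a1, the collagen of hypertrophic cartilage, with at most 3. Col28a1, Col4a3, Col4a4 and Col6a4 met it in Grhl2-/- arches alone, and none of these 4 was called at either threshold used below.

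At FDR below 0.01, 3 of the 41 collagen genes (7.32%) were higher in Grhl2-/- PA1, whereas 0.879% of all genes tested were higher. They were Col4a5 and Col4a6, 2 chains of type IV collagen encoded side by side on the X chromosome, and Col25a1, a transmembrane collagen. No collagen gene was lower at this threshold by limma-voom, and 4 were lower and 14 higher at an unadjusted p below 0.05. The quasi-likelihood test of edgeR called 3 higher and 0 lower, against 0.975% and 1.11% of all genes, and DESeq2 called 8 higher and 1 lower, against 3.57% and 3.80%. Of all genes tested by limma-voom, 1.09% were lower at FDR below 0.01, and at an unadjusted p below 0.05 14.3% were lower and 14.2% higher. At FDR below 0.05, 9 collagen genes (22%) were higher and 1 (2.44%) was lower, against 3.84% and 3.87% of all genes. The genes added by the wider threshold were Col18a1, Col22a1, Col8a1, Col9a2, Col5a2 and Col11a2, which were higher, and Col9a3, which was lower. With the mean of the sensory neuron markers as a covariate, the FDR rose above 0.05 for 5 of these 7 genes at log2 fold changes of 0.28 for Col5a2 (FDR 0.0795), 0.38 for Col11a2 (0.128), 0.52 for Col9a2 (0.0694), -0.43 for Col9a3 (0.0685) and 0.49 for Col22a1 (0.0661), and it fell below 0.01 for Col18a1 (0.32, FDR 0.0087) and Col8a1 (1.74, FDR 0.0061). Without wild-type replicates 1 and 2, 6 of the 7 were above FDR 0.05 (0.0596 to 0.203, with Col8a1 at 0.0456), and all 7 log2 fold changes kept their sign. The median log2 fold change was 0.13 over the 41 collagen genes and 0.01 over all genes tested. Of the 41 values, 28 were positive (68.3%, against 52.7% of all genes). All 5 Grhl2-/- arches lay above all 5 wild-type arches for 8 collagen genes (19.5%) and below them for 1 (2.44%), whereas this held for 4.22% and 4.66% of all genes.

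**Figure D1:**
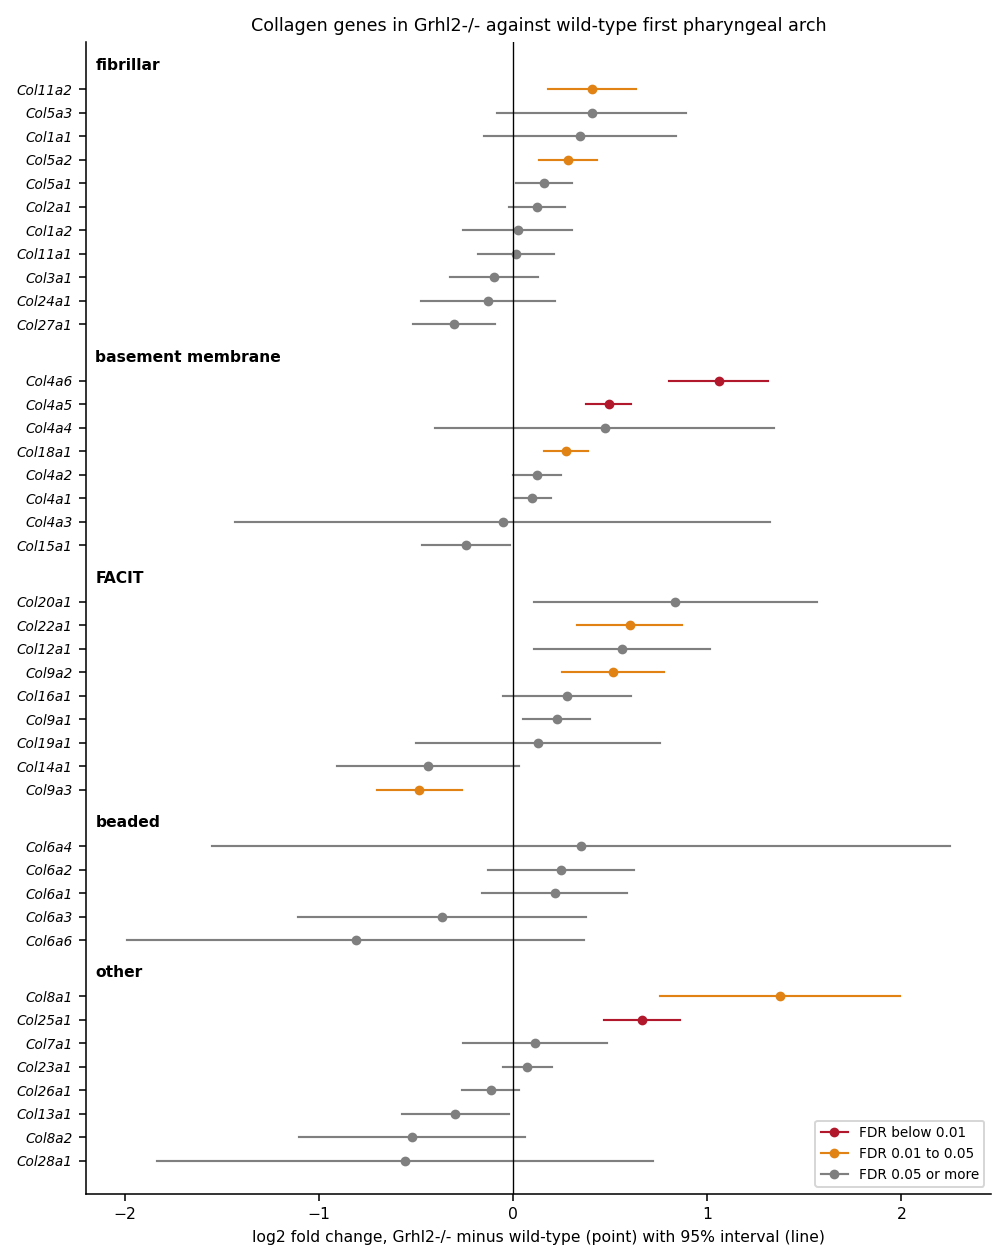
Log2 fold change of the 41 tested collagen genes, Grhl2-/- minus wild-type, on the x axis, with 1 gene per line, grouped by type and ordered by value within it. Points are the limma-voom estimates from 5 arches per genotype, lines their 95% intervals, and the colour gives the FDR class. The 3 genes at FDR below 0.01 are Col4a6, Col4a5 and Col25a1, and Col9a3 is the only gene below 0.05 with a negative value.

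Collagen transcripts as a whole made up 0.477 ± 0.025% (SD, n = 5) of all counts in wild-type PA1 and 0.517 ± 0.0464% in Grhl2-/- PA1, with ranges of 0.454 to 0.517% and 0.479 to 0.593% that overlapped. Levels per kb were divided by the union of all annotated exons of a gene, which is 12.4 kb for Col1a2 and 6.56 kb for Col1a1. Comparisons between genes on this scale therefore depend in part on the annotation. Per kb of exon, fibrillar collagens held 40.7 ± 1.27% of the family's counts in wild-type arches and 39.2 ± 1.26% in Grhl2-/- arches. Basement membrane collagens held 38.0 ± 2.17% and 39.8 ± 1.35%, and FACITs 8.28 ± 0.276% and 9.16 ± 0.73%. Beaded collagens held 0.958 ± 0.128% and 0.955 ± 0.204%, and the remaining collagens 11.99 ± 0.591% and 10.9 ± 0.614%. At this stage the family was thus made up largely of fibril and basement membrane chains in both genotypes. Among the Grhl2-/- arches, replicate 4 had the highest value for 25 of the 41 collagen genes and the highest collagen share of counts, and among the wild-type arches replicate 1 had the highest value for 19. Without Grhl2-/- replicate 4, 3 collagen genes were higher and 0 lower at FDR below 0.01, against 0.496% and 0.910% of all genes.

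**Figure D2:**
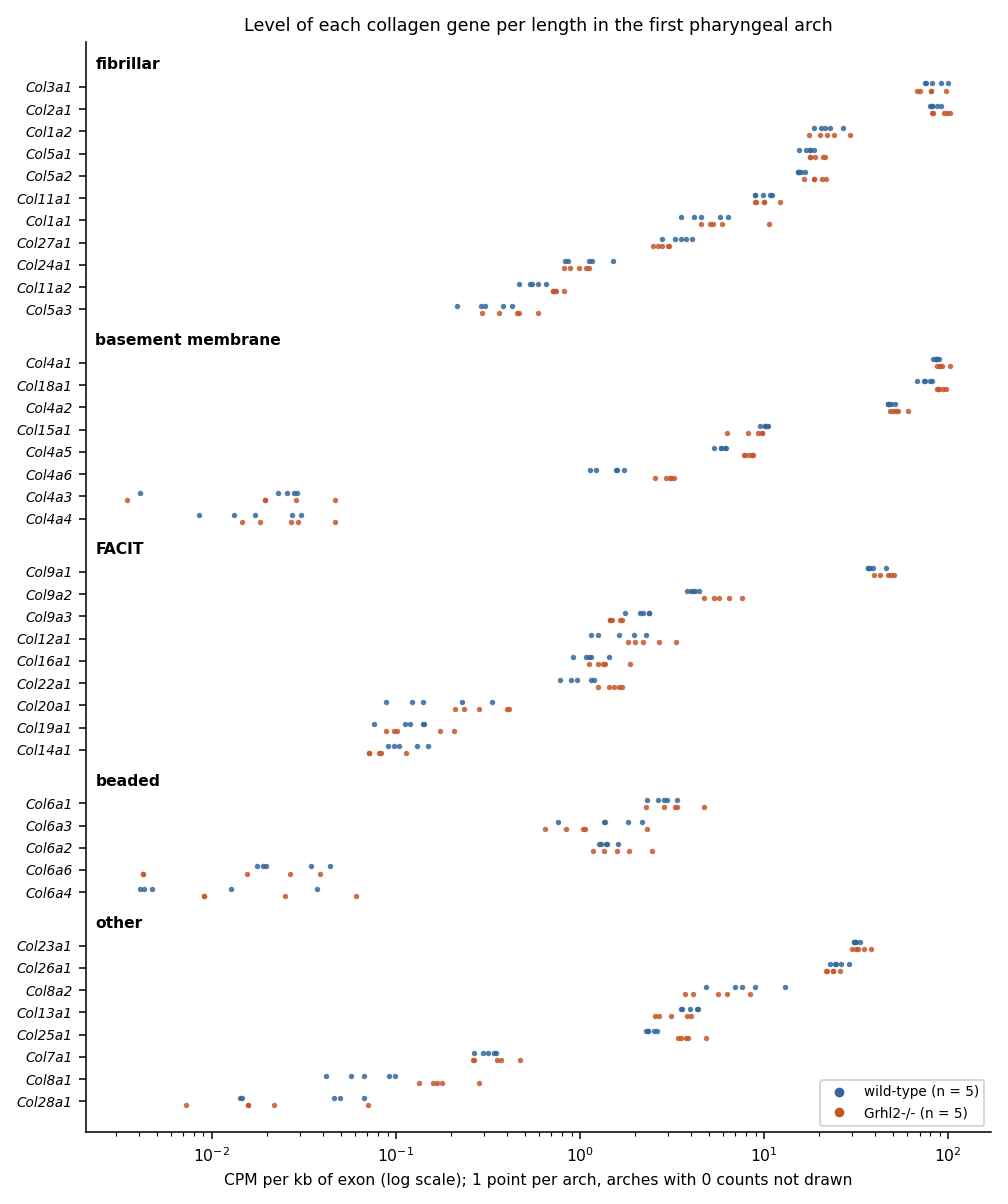
Level of each tested collagen gene on the x axis in CPM per kb of exon, on a log scale, with 1 gene per line, grouped by type and ordered by the wild-type mean. Each point is 1 arch, blue for the 5 wild-type and orange for the 5 Grhl2-/- arches. On this scale, which depends on the annotated exon length, Col4a1, Col3a1 and Col2a1 lead the family, with wild-type means of 86.5, 85.0 and 84.4 CPM per kb.

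Among the basement membrane collagens, 2 of the 8 tested genes were higher at FDR below 0.01, 3 at FDR below 0.05, and 0 were lower at either, against 0.879% and 3.84% of all genes higher and 1.09% and 3.87% lower. Col4a1 and Col4a2, whose chains form the type IV network found in nearly all basement membranes, were at 86.5 ± 2.27 and 48.5 ± 1.83 CPM per kb in wild-type PA1. Col18a1, whose product carries heparan sulfate chains and releases the fragment endostatin, followed at 75.6 ± 5.31 CPM per kb. Col15a1, its closest relative, was at 10.1 ± 0.354 CPM per kb. Col4a5 and Col4a6 were lower, at 5.88 ± 0.352 and 1.45 ± 0.259 CPM per kb, and Col4a3 and Col4a4, best known from the basement membrane of the kidney glomerulus, were at 0.0218 and 0.0193 CPM per kb. At the annotated exon lengths, the wild-type ranges of Col4a1 and Col18a1 did not overlap. On this scale the order Col4a1, Col18a1, Col4a2, Col15a1, Col4a5, Col4a6 held beyond the spread between arches, while Col4a3 and Col4a4 could not be ordered.

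The 6 type IV genes lie in 3 head-to-head pairs with neighbouring starts, transcribed in opposite directions, and the pairs are on different chromosomes. In GRCm38, the starts of Col4a5 and Col4a6 are 1309 bp apart on chromosome X, those of Col4a3 and Col4a4 72 bp apart on chromosome 1, and the first exons of Col4a1 and Col4a2 on chromosome 8 overlap by 22 bp on opposite strands. The chain pairs made from these loci differ in use. Col4a5 and Col4a6 chains join in a network found beneath some epithelia and around smooth muscle.

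Col4a6 (ENSMUSG00000031273, GRCm38 chromosome X, 141165403 to 141474076, minus strand) was at 12.7, 13.8, 12.6, 9.01 and 9.69 CPM in wild-type replicates 1 to 5. It was at 25.0, 23.4, 20.4, 24.6 and 25.9 CPM in Grhl2-/- replicates 1 to 5. All mutant arches lay above all wild-type arches, and the means were 11.5 ± 2.07 and 23.9 ± 2.15 CPM (SD, n = 5). The fold change was 2.08, or 1.06 ± 0.116 (SE) on the log2 scale, with an FDR of 3.42e-04 by limma-voom.

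Col4a5 (chromosome X, 141475385 to 141689234, plus strand) was at 41.3, 41.8, 39.4, 35.8 and 39.1 CPM in wild-type replicates 1 to 5. It was at 57.6, 53.0, 55.8, 58.4 and 52.3 CPM in Grhl2-/- replicates 1 to 5. Again no arch of one genotype fell within the range of the other, and both groups were narrow. Col4a5 rose 1.41-fold, by 0.49 ± 0.0527 (SE) on the log2 scale, with an FDR of 2.72e-04 by limma-voom.

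The stretches just upstream of the starts of Col4a5 and Col4a6 are shown because the genes share the interval between them and were both higher. They are from the RefSeq promoter windows on GRCm38.p6, without any annotated exon, each 5′ to 3′ on the strand of its gene. The Col4a5 stretch is chrX:141475169-141475384 (plus strand, 216 bases) and the Col4a6 stretch is chrX:141474077-141474326 (minus strand, 250 bases). Capitals mark a CCAAT box in Col4a5 and a GC box (GGGCGG, read on the other strand) in Col4a6.
Col4a5: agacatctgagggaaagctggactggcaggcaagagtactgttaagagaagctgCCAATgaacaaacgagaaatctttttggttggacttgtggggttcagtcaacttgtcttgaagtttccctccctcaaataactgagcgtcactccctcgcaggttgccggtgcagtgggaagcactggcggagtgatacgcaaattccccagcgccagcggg
Col4a6: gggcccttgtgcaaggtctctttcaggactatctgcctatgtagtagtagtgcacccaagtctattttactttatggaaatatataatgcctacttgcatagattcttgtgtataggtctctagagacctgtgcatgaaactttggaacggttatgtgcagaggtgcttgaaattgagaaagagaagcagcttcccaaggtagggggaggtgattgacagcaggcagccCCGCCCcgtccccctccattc

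Promoter windows of 300 bases (250 before and 50 after the RefSeq start) were found for 34 of the 43 collagen genes, 37 windows in all, and were searched on both strands for 5 motifs. The grainyhead site AACCGGTT, the kind of sequence GRHL proteins bind, was in 0 of the 37 collagen windows and in 0.146% of all 32851 windows. The looser AACNNGTT, which contains the first motif, was in 1 collagen window, that of Col28a1 (2.7%), and in 4.2% of all windows. The E-box CACCTG, bound by ZEB and SNAIL repressors, was in the windows of Col4a4, Col9a2, Col16a1, Col6a5 and Col8a1 (13.5%, against 20.2% of all windows). The GC box GGGCGG was in 62.2% of collagen windows and 35.7% of all, and the CCAAT box in 32.4% and 37.4%. A match is a description of the letters in the window, and the absence of one says only that these letters were not in it.

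The other type IV pairs did not pass the test. Col4a1 was at 667, 646, 653, 621 and 639 CPM in wild-type replicates 1 to 5 and at 696, 676, 647, 765 and 674 CPM in Grhl2-/- replicates 1 to 5. Col4a2 was at 317, 341, 323, 311 and 312 CPM in wild-type replicates 1 to 5 and at 355, 331, 321, 400 and 344 CPM in Grhl2-/- replicates 1 to 5. For both genes the ranges overlapped and Grhl2-/- replicate 4 was the highest arch, and neither passed the threshold (log2 fold change 0.10, 95% interval 0.00286 to 0.195, and 0.12, interval -2.08e-04 to 0.245). Col4a3 and Col4a4 were near the limit of detection. Col4a3 was at 0.227, 0.288, 0.279, 0.254 and 0.0404 CPM in wild-type replicates 1 to 5 and at 0.285, 0.194, 0.0346, 0.463 and 0.193 CPM in Grhl2-/- replicates 1 to 5. Col4a4 was at 0.0908, 0.288, 0.139, 0.182 and 0.323 CPM in wild-type replicates 1 to 5 and at 0.285, 0.194, 0.312, 0.498 and 0.154 CPM in Grhl2-/- replicates 1 to 5. The ranges of these 2 genes overlapped in full or in large part, and their intervals, from -1.43 to 1.32 and from -0.40 to 1.35 on the log2 scale, leave large changes undetectable at this depth.

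Col18a1 was at 518, 572, 561, 478 and 526 CPM in wild-type replicates 1 to 5 and at 660, 618, 631, 684 and 609 CPM in Grhl2-/- replicates 1 to 5. The groups did not overlap, and the difference of 0.27 ± 0.0521 (SE) on the log2 scale had an FDR of 0.0115 by limma-voom. Col15a1 had a log2 fold change of -0.24 with an FDR of 0.153. The summed level of 8 endothelium markers, a cell type whose vessels also rest on basement membrane, was between 380 and 433 CPM in wild-type and between 418 and 502 CPM in Grhl2-/- arches. At FDR below 0.01 0 of 8 were called, and at FDR below 0.05 2 of 8, Pecam1 (FDR 0.0257) and Kdr (FDR 0.0305), were higher. Of all genes, 0.879% and 3.84% were higher at these thresholds. The part of endothelial cells, and that of the epithelial lists above, in the type IV and Col18a1 results was not tested.

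Col25a1 belongs to the transmembrane collagens, is made by neurons and developing muscle, and its shed ectodomain is found in amyloid plaques. It lies on chromosome 3 (130131501 to 130599877, plus strand). It was at 32.5, 34.1, 30.5, 30.5 and 29.6 CPM in wild-type replicates 1 to 5 and at 44.1, 45.6, 50.02, 62.3 and 48.5 CPM in Grhl2-/- replicates 1 to 5. The mutant arches were all above the wild-type arches, with replicate 4 the highest. Col25a1 rose 1.59-fold, by 0.67 ± 0.09 (SE) on the log2 scale, with an FDR of 0.00141 by limma-voom. With the mean of the sensory neuron markers as a covariate the log2 fold change was 0.73 (FDR 0.00178, limma-voom). Without wild-type replicates 1 and 2, the arches with few sensory neuron transcripts, it was 0.71 and the FDR was 0.0113, which is above the threshold. The 8 muscle progenitor markers summed to between 49.97 and 64.4 CPM in wild-type and between 45.6 and 90.6 CPM in Grhl2-/- arches, and their part in the Col25a1 result was not tested.

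The stretch upstream of the RefSeq start of Col25a1 is shown as the promoter of the other called gene. It is chr3:130180595-130180844 on GRCm38.p6 (plus strand, 250 bases), lies between exons of the longer GENCODE gene model, and its capitals mark 1 CCAAT box and 2 GC boxes (GGGCGG on either strand).
Col25a1: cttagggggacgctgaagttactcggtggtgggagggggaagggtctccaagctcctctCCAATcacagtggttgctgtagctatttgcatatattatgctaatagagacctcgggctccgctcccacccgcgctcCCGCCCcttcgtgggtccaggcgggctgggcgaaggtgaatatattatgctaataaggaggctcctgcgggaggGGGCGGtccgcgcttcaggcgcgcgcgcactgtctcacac

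Of the other collagens outside the 4 main types, Col23a1, also a transmembrane collagen, was the most abundant per length at 31.6 ± 1.02 CPM per kb in wild-type PA1, followed by Col26a1 at 25.4 ± 2.36 CPM per kb, and their ranges did not overlap. Col23a1 was at 191, 182, 177, 180 and 177 CPM in wild-type replicates 1 to 5 and at 185, 200, 172, 218 and 181 CPM in Grhl2-/- replicates 1 to 5, with overlapping ranges and a log2 fold change of 0.07. Col8a1, a short-chain collagen of vessel walls and of the basement membrane of the cornea, had the largest log2 fold change of the family. It was at 0.772, 0.719, 0.523, 0.327 and 0.444 CPM in wild-type and at 1.39, 1.32, 1.25, 2.21 and 1.04 CPM in Grhl2-/- replicates 1 to 5, which is 9 to 20 and 27 to 62 reads. The arches did not overlap, and the log2 difference of 1.38 ± 0.283 (SE) had an FDR of 0.0168 by limma-voom. Col8a2, the partner chain of Col8a1, was far more abundant, with means of 37.2 ± 13.7 CPM for wild-type and 25.3 ± 8.4 CPM for Grhl2-/- PA1 and a log2 fold change of -0.52 (FDR 0.22). Col13a1 (log2 fold change -0.30), Col26a1 (-0.11), Col7a1, the anchoring fibril collagen (0.11), and Col28a1 (-0.56) did not pass either threshold.

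**Figure D3:**
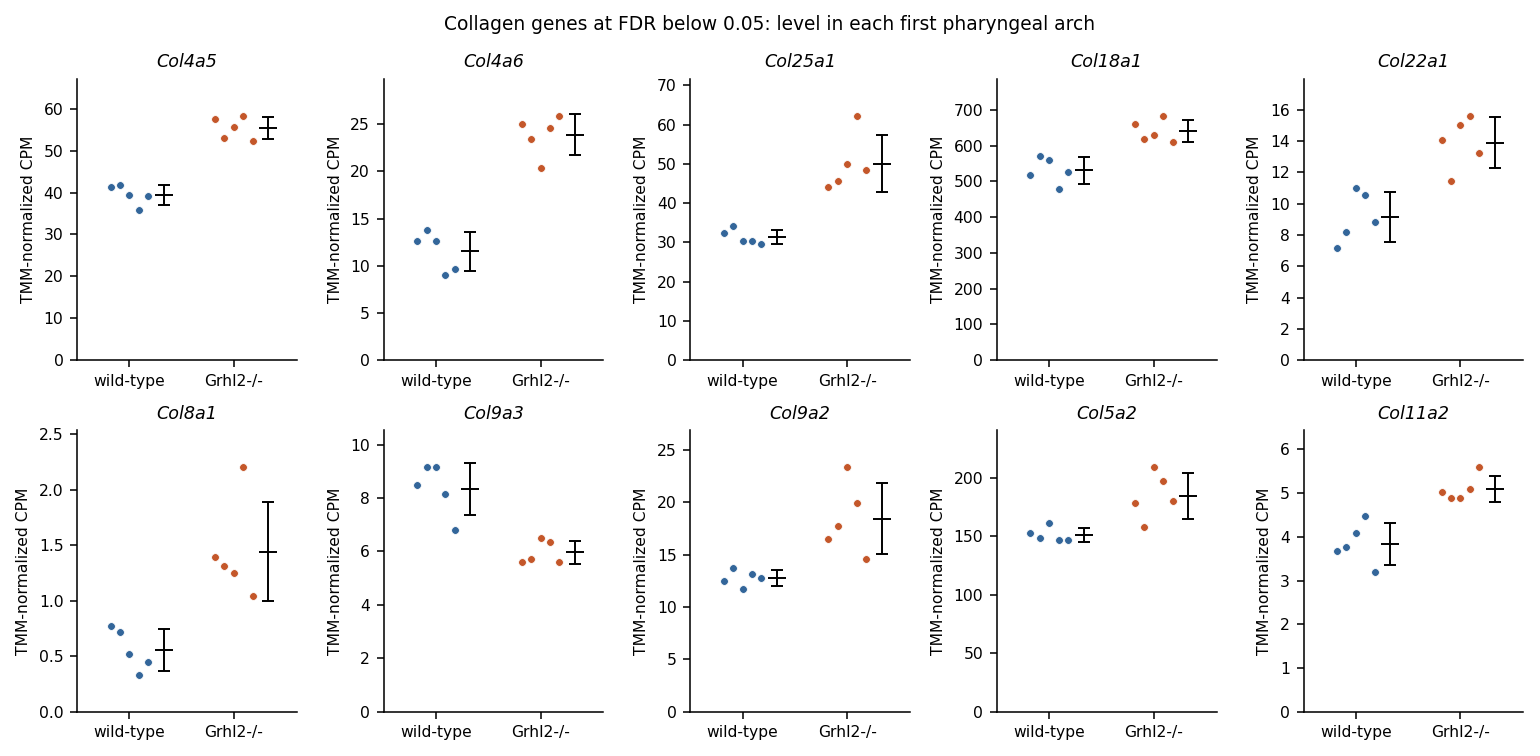
TMM-normalized CPM (y axis, from 0) of the 10 collagen genes at FDR below 0.05 in each arch, ordered by FDR. Points are single arches, 5 wild-type in blue and 5 Grhl2-/- in orange, and the black marks give the mean and SD. The groups are separate for all of these genes except Col5a2, whose lowest Grhl2-/- arch (158 CPM) lies below the highest wild-type arch (161 CPM).

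Among the fibrillar collagens, 0 of 11 genes passed FDR 0.01 in either direction by limma-voom, 2 were higher and 0 lower at FDR below 0.05 (3.84% and 3.87% of all genes), and 3 were higher and 1 lower at an unadjusted p below 0.05, a threshold passed by 14.2% and 14.3% of all genes. Their median log2 fold change was 0.12. Col3a1, the type III chain of elastic tissues, and Col2a1, the main collagen of cartilage, were the most abundant at 85.0 ± 10.9 and 84.4 ± 4.55 CPM per kb in wild-type PA1, and did not differ beyond their spread. Col1a2 followed at 22.0 ± 3.03 CPM per kb, then Col5a1 at 17.3 ± 1.17, Col5a2 at 15.8 ± 0.642, Col11a1 at 9.92 ± 1.02 and Col1a1 at 4.88 ± 1.17 CPM per kb. Col27a1 and Col24a1, best known from cartilage and bone, were at 3.49 and 1.101 CPM per kb, and Col11a2 and Col5a3 at 0.558 and 0.324 CPM per kb. The ranges of Col5a1 and Col5a2, and those of Col1a1 and Col27a1, overlapped, so these neighbours could not be ordered.

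Col3a1 was at 985, 803, 732, 902 and 748 CPM in wild-type replicates 1 to 5 and at 790, 694, 796, 952 and 666 CPM in Grhl2-/- replicates 1 to 5. The ranges overlapped over most of their length and the log2 fold change was -0.10, with a 95% interval of -0.32 to 0.13. Col2a1 had a log2 fold change of 0.12 (FDR 0.24), Col1a1 of 0.35 (FDR 0.33) and Col1a2 of 0.02 (FDR 0.923), so that the main chains of fibrils in mesenchyme and cartilage did not pass the test. The 10 markers of ectomesenchyme, the neural crest tissue that fills the arch, summed to between 1586 and 2050 CPM in wild-type and between 1312 and 1627 CPM in Grhl2-/- arches. At FDR below 0.01 1 of 10 (Msx1) was lower, and at FDR below 0.05 3 of 10 (with Twist1 at FDR 0.0189 and Hand2 at FDR 0.0368), against 1.09% and 3.87% of all genes. The log2 fold change was negative for 9 of 10, while 52.7% of all genes had a positive value. The part of these markers in the fibrillar results was not tested. The cartilage markers tested, 6 of 9 listed, summed to between 234 and 293 CPM in wild-type and between 212 and 268 CPM in Grhl2-/- arches, with 0 called.

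Col5a2, a chain of the type V collagen that nucleates type I fibrils, was at 153, 149, 161, 147 and 146 CPM in wild-type replicates 1 to 5 and at 178, 158, 209, 198 and 180 CPM in Grhl2-/- replicates 1 to 5. Only Grhl2-/- replicate 2 lay within the wild-type range, and the log2 difference of 0.28 ± 0.0678 (SE) had an FDR of 0.0305 by limma-voom. Without that arch the FDR was 0.00957, and without wild-type replicates 1 and 2 the log2 difference was 0.27 and the FDR 0.164. Col5a2 lies tail to tail with Col3a1 on chromosome 1, with 24614 bp between the genes, and the neighbour was not called. Col11a2, a chain of the type XI collagen that sits inside cartilage fibrils, was at 3.68, 3.77, 4.08, 4.47 and 3.19 CPM in wild-type and at 5.03, 4.88, 4.88, 5.09 and 5.60 CPM in Grhl2-/- replicates 1 to 5. The groups were separate, with a log2 difference of 0.41 ± 0.103 (SE) and an FDR of 0.0378 by limma-voom. The others, Col5a1 (0.16), Col5a3 (0.40), Col11a1 (0.02), Col24a1 (-0.13) and Col27a1 (-0.30), had log2 fold changes with FDR values from 0.075 to 0.931.

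Of 9 FACITs tested, 0 passed FDR 0.01 by limma-voom, 2 were higher and 1 lower at FDR below 0.05 (3.84% and 3.87% of all genes), and 5 were higher and 1 lower at an unadjusted p below 0.05 (14.2% and 14.3% of all genes). The 3 chains of type IX collagen, which coats the type II fibrils of cartilage, are made by Col9a1, Col9a2 and Col9a3 on 3 different chromosomes (1, 4 and 2). Col9a1 was by far the most abundant FACIT at 39.3 ± 4.05 CPM per kb in wild-type PA1, followed by Col9a2 at 4.13 ± 0.238 and Col9a3 at 2.17 ± 0.254 CPM per kb. Below them were Col12a1 at 1.66, Col16a1 at 1.14, Col22a1 at 0.995, Col20a1 at 0.182, Col19a1 at 0.118 and Col14a1 at 0.114 CPM per kb. From Col9a3 to Col22a1 each gene overlapped the next in this order, as did Col20a1, Col19a1 and Col14a1 among themselves.

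Col9a1 was at 234, 199, 185, 190 and 186 CPM in wild-type replicates 1 to 5 and at 238, 217, 256, 248 and 202 CPM in Grhl2-/- replicates 1 to 5. The ranges overlapped through wild-type replicate 1, and the log2 fold change was 0.23 with an FDR of 0.0948. Col9a2 was at 12.5, 13.7, 11.7, 13.1 and 12.8 CPM in wild-type and at 16.5, 17.7, 23.4, 19.96 and 14.6 CPM in Grhl2-/- replicates 1 to 5. Here the groups were separate, with a log2 difference of 0.52 ± 0.12 (SE) and an FDR of 0.0277 by limma-voom. Col9a3 was at 8.49, 9.17, 9.17, 8.14 and 6.79 CPM in wild-type and at 5.60, 5.73, 6.51, 6.37 and 5.60 CPM in Grhl2-/- replicates 1 to 5. It was the only collagen with every mutant arch below every wild-type arch, with a log2 fold change of -0.48 ± 0.101 (SE) and an FDR of 0.0181 by limma-voom. Without wild-type replicate 5, its lowest wild-type arch, the FDR was 0.00726, and without wild-type replicates 1 and 2 the log2 fold change was -0.44 and the FDR 0.122. Exons of Col9a3 and of Tcfl5 on the opposite strand share 234 bp.

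Col22a1, a collagen of tissue junctions such as those between muscle and tendon, was at 7.18, 8.20, 11.01, 10.54 and 8.85 CPM in wild-type and at 14.1, 11.5, 15.0, 15.6 and 13.2 CPM in Grhl2-/- replicates 1 to 5. All mutant arches were above all wild-type arches, by 0.60 ± 0.124 (SE) on the log2 scale, with an FDR of 0.0168 by limma-voom. Col12a1, which is found along the fibrils of tendon and other dense tissue, had a log2 fold change of 0.56 and Col20a1 of 0.84, with FDR values of 0.109 and 0.129 and overlapping arches. Col16a1 (0.28), Col19a1 (0.13) and Col14a1 (-0.44) did not pass the test.

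None of the 5 tested beaded collagens passed either FDR threshold or an unadjusted p of 0.05 in limma-voom. Of all genes, 0.879% were higher and 1.09% lower at FDR below 0.01, and 3.84% and 3.87% at FDR below 0.05. At the unadjusted p these shares were 14.2% and 14.3%. Col6a1, Col6a2 and Col6a3, the chains of the common type VI molecule, were at 2.83 ± 0.387, 1.40 ± 0.129 and 1.49 ± 0.531 CPM per kb in wild-type PA1, and the levels of Col6a2 and Col6a3 overlapped. Col6a1 was at 14.7, 13.0, 10.1, 12.5 and 11.7 CPM in wild-type and at 14.4, 12.6, 14.7, 20.7 and 10.04 CPM in Grhl2-/- replicates 1 to 5, with overlapping ranges. Its log2 fold change was 0.21, that of its neighbour Col6a2 was 0.25 and that of Col6a3 was -0.36, with 95% intervals of -0.16 to 0.59, -0.13 to 0.62 and -1.11 to 0.38. Col6a4 and Col6a6, which lie with Col6a5 in a row on chromosome 9, had at most 15 and 11 counts in an arch.

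Because chains enter one molecule in fixed proportions, the ratio of their transcripts per kb was taken within each arch, which does not depend on the scaling between libraries. The ratios are given as a description, without a test. Their level depends on the annotated exon lengths, which are the same for both genotypes. Col4a5 to Col4a6 was 3.87, 3.60, 3.71, 4.71 and 4.79 in wild-type replicates 1 to 5 and 2.73, 2.69, 3.25, 2.81 and 2.39 in Grhl2-/- replicates 1 to 5. Every mutant arch was below every wild-type arch, since Col4a6 rose by a larger factor than Col4a5. Col4a1 to Col4a2 was 1.78 ± 0.0672 in wild-type and 1.75 ± 0.0463 in Grhl2-/- PA1 and overlapped.

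The type IX chains also shifted against each other. Col9a1 to Col9a3 was 20.99, 16.5, 15.4, 17.7 and 20.9 in wild-type and 32.4, 28.8, 29.9, 29.7 and 27.4 in Grhl2-/- replicates 1 to 5, with no overlap. Col9a1 to Col9a2 was between 8.844 and 11.5 in wild-type and between 6.70 and 8.837 in Grhl2-/- arches, and the 2 ranges only just failed to meet. The ratios of Col1a1 to Col1a2 (0.22 ± 0.0359 and 0.274 ± 0.0544), Col5a1 to Col5a2 (1.102 ± 0.101 and 1.01 ± 0.0526), Col11a1 to Col11a2 (18.0 ± 2.67 and 13.6 ± 1.97), Col6a1 to Col6a2 (2.02 ± 0.185 and 1.98 ± 0.114) and Col6a1 to Col6a3 (2.06 ± 0.609 and 3.31 ± 1.49) overlapped between genotypes.

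**Figure D4:**
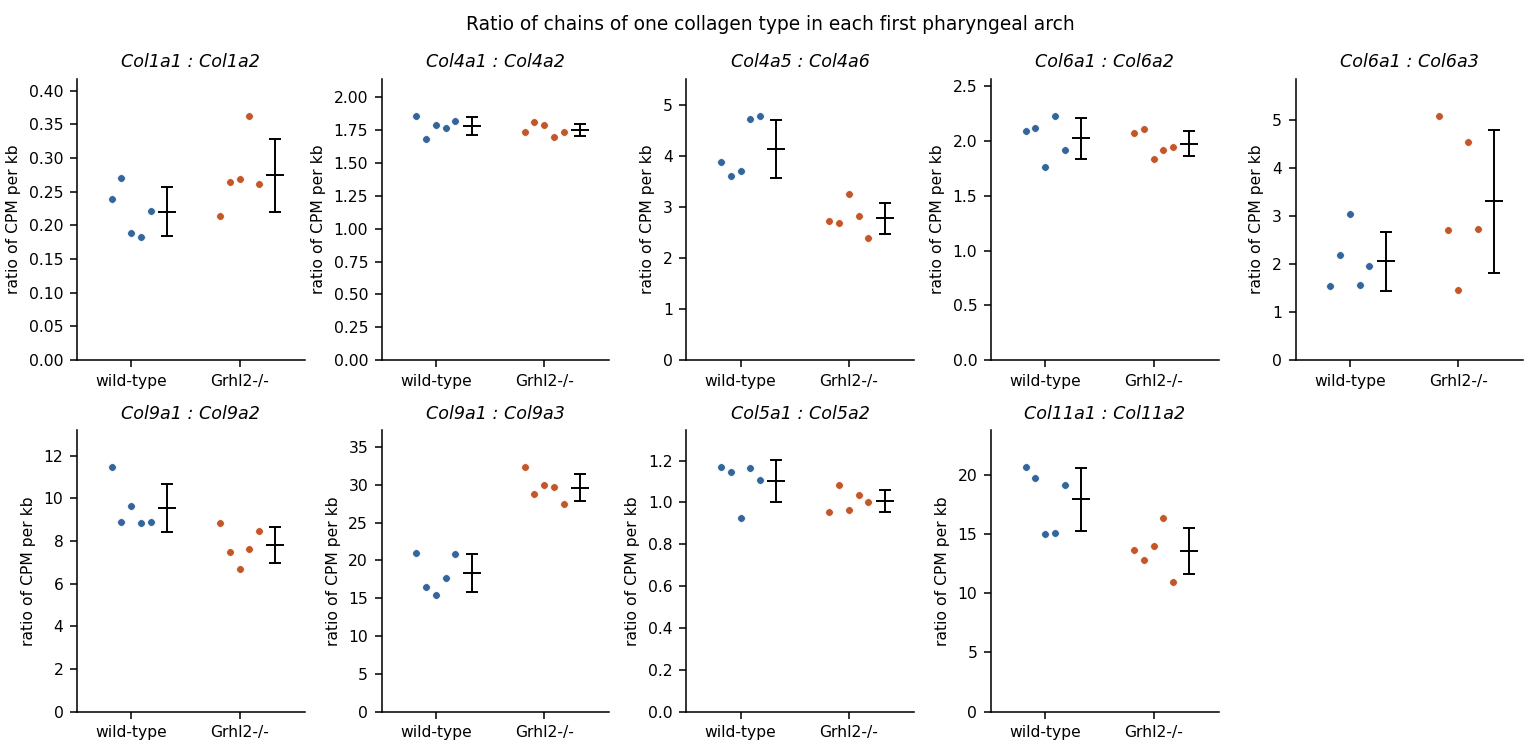
Ratio of the CPM per kb of 2 chains (y axis, from 0, no unit) in each arch, for 9 pairs of chains of one collagen type. Points are single arches, 5 wild-type in blue and 5 Grhl2-/- in orange, and black marks give the mean and SD. Col4a5 to Col4a6 and Col9a1 to Col9a2 are lower and Col9a1 to Col9a3 is higher in every Grhl2-/- arch.

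Collagen chains are hydroxylated and folded in the endoplasmic reticulum, trimmed and cross-linked outside the cell, and then bound by other matrix proteins and by receptors. Of 50 genes listed for these steps 48 were tested, and at FDR below 0.01 5 of them (10.4%) were higher and 0 lower in Grhl2-/- PA1 by limma-voom, against 0.879% and 1.09% of all genes. By edgeR 5 were higher and 0 lower, against 0.975% and 1.11% of all genes. At an unadjusted p below 0.05 in limma-voom 21 were higher and 3 lower, against 14.2% and 14.3% of all genes. At FDR below 0.05, 10 (20.8%) were higher and 0 lower, against 3.84% and 3.87%. The median log2 fold change over the 48 genes was 0.15.

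Sparc, a secreted glycoprotein that binds fibrillar and type IV collagen, was at 126, 121, 122, 128 and 124 CPM in wild-type replicates 1 to 5 and at 184, 184, 183, 202 and 168 CPM in Grhl2-/- replicates 1 to 5. It rose by 0.57 ± 0.0457 (SE) on the log2 scale, with an FDR of 3.13e-05 by limma-voom, the smallest in these lists. Nid2, a linker of basement membrane laminin and type IV collagen, rose by 0.34 ± 0.0446, from 150.4 ± 5.12 to 191 ± 10.7 CPM, and its relative Nid1 had a log2 fold change of 0.03. Ddr1, a collagen receptor tyrosine kinase of epithelial cells, rose by 0.50 ± 0.0517, from 36.1 ± 1.91 to 51.2 ± 2.67 CPM. Ddr2, the corresponding receptor of mesenchymal cells, had a log2 fold change of -0.32 (FDR 0.0938). The arches of the genotypes did not overlap for Sparc, Nid2 or Ddr1.

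The lysyl oxidases, which start the cross-links between collagen molecules, held the largest change among called partners. Loxl2 was at 49.4, 50.8, 55.9, 54.3 and 50.9 CPM in wild-type and at 94.2, 154, 81.2, 144 and 110 CPM in Grhl2-/- replicates 1 to 5. The wild-type arches were close together and the mutant arches spread widely above them, with a log2 difference of 1.11 ± 0.162 (SE) and an FDR of 0.00234 by limma-voom. Loxl1 rose by 0.57 ± 0.0954, with an FDR of 0.00561 that went above the threshold when any 1 of wild-type replicates 2 to 5 or Grhl2-/- replicates 3 to 5 was left out, to at most 0.0197, while the log2 difference stayed between 0.52 and 0.61. With the sensory neuron covariate it was 0.607 and the FDR 0.0133. Without wild-type replicates 1 and 2 the log2 difference was 0.60 for Loxl1 (FDR 0.0354), 1.06 for Loxl2 (FDR 0.0346) and 0.30 for Nid2 (FDR 0.0228). Lox, Loxl3 and Loxl4 had log2 fold changes of 0.35, 0.16 and 0.86 and did not pass the test, nor did Pxdn, the peroxidase that cross-links type IV collagen (0.07).

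Of the 19 tested genes for chain modification and folding, 0 passed FDR 0.01 by limma-voom (0.879% of all genes higher and 1.09% lower), and at FDR below 0.05 5 were higher and 0 lower (3.84% and 3.87% of all genes). These were the prolyl 3-hydroxylases P3h1, P3h2 and P3h3, with log2 fold changes of 0.21, 0.48 and 0.32, and the lysyl hydroxylases Plod1 and Plod2, with 0.38 and 0.59. Plod2 was at 112, 160, 92.2, 159 and 126 CPM in Grhl2-/- replicates 1 to 5 and at most 89.6 CPM in wild-type arches. Grhl2-/- replicates 2, 4 and 5 were the highest arches for Plod1, Plod2 and Loxl2 alike. P3h2 had the smallest FDR of this list (0.0213). Serpinh1, the collagen chaperone, and P4hb, a subunit of prolyl 4-hydroxylase, both had log2 fold changes of 0.01, with standard errors of 0.0539 and 0.0338. The other subunit genes of that enzyme, P4ha1, P4ha2 and P4ha3, had log2 fold changes of 0.59, 0.39 and 0.98. They did not pass the test (FDR 0.0984, 0.307 and 0.189 by limma-voom). The values of these enzymes are levels of transcripts and not of hydroxylation.

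**Figure D5:**
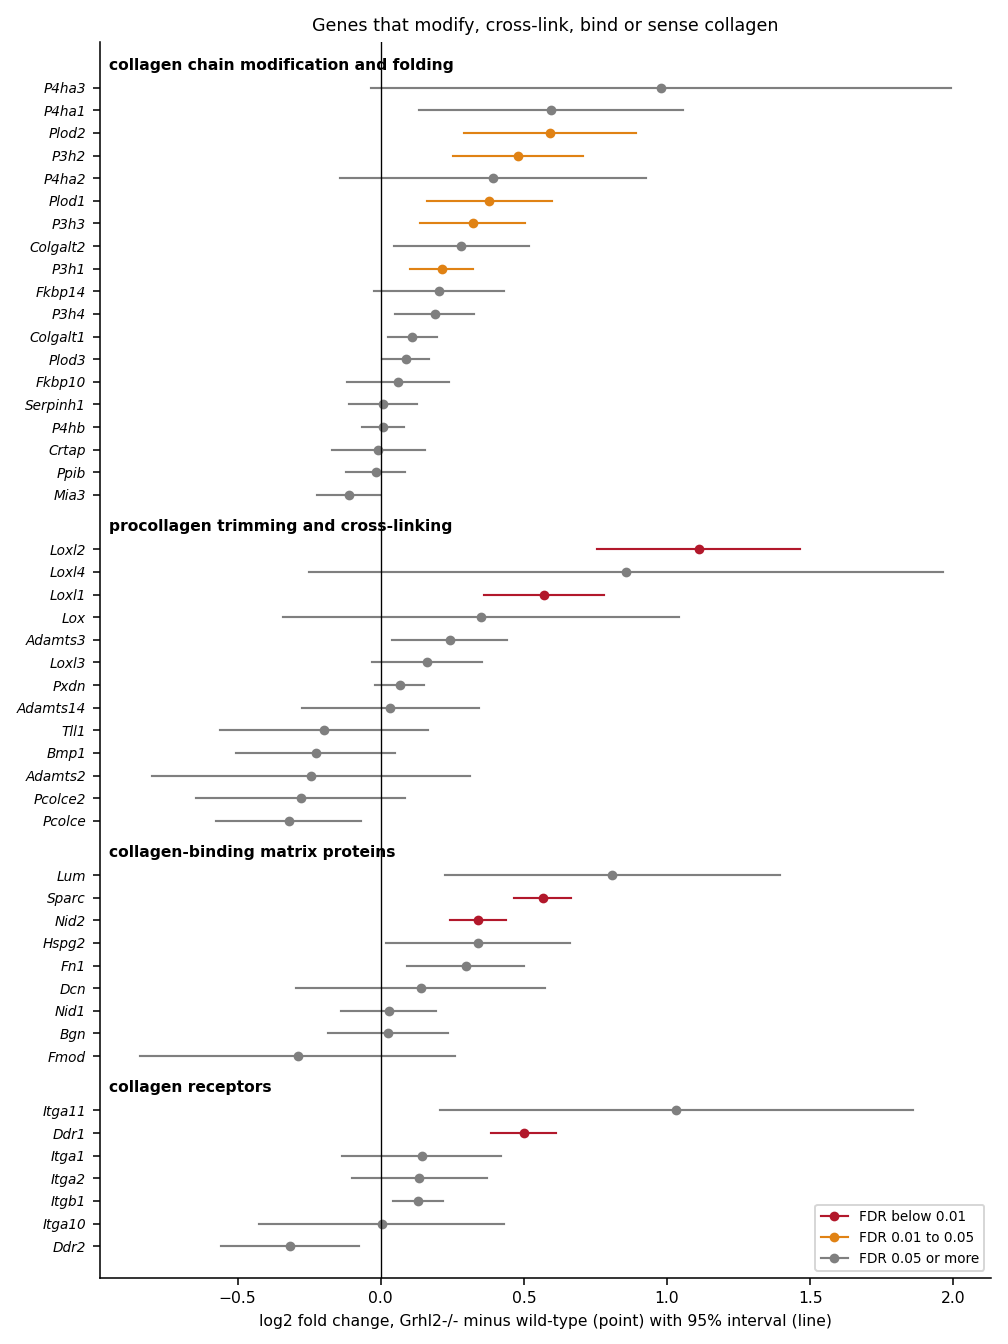
Log2 fold change, Grhl2-/- minus wild-type, on the x axis for the 48 tested genes that modify, cross-link, bind or sense collagen, with 1 gene per line in 4 lists. Points are limma-voom estimates from 5 arches per genotype, lines their 95% intervals, and the colour gives the FDR class. Loxl2, Loxl1, Sparc, Nid2 and Ddr1 are the genes at FDR below 0.01, and all 5 are positive.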

How the data were processed

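PA1 RNA of 10 embryos was measured, 5 per genotype. The authors used STAR for alignment to GRCm38 and featureCounts for counting, and the deposited values are raw counts per gene. The submitters' notes also name edgeR 3.18.1 and limma 3.32.7, and the annotation release is not given in the sources used here. The name of the table refers to counting on the reverse strand. A second deposited table holds the authors' own comparison and was not used.

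Counts were normalized by TMM and tested with limma-voom (limma 3.58.1, edgeR 4.0.16, R 4.3.3), with genotype as the only term, on genes with 10 or more counts in any arch, with Benjamini-Hochberg adjustment over all genes tested and FDR 0.01 as the threshold. Levels per kb use the union of exons in GENCODE M21 (GRCm38), matched by identifier. Figures were drawn with matplotlib. The script was tested on simulated counts. Arches of a genotype differed pairwise beyond sampling noise.

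The members, the gene lists and the thresholds were chosen with earlier results of these data known. Each of the 43 collagen genes analysed is named. Values in every arch are given for collagens at FDR below 0.05, the most abundant member of each type per length and the type IV pairs. Of the partner lists, the genes at FDR below 0.01 or the smallest FDR are named, and further genes for context, and of the marker lists those called. The alternatives tried were DESeq2 1.42.0, the quasi-likelihood test of edgeR, voomWithQualityWeights, other scalings and count filters, the label number as a replicate block, a sensory neuron covariate, other thresholds and leaving out each arch. Leaving out wild-type replicates 1 and 2 together was chosen after the data were seen. The labels do not say whether the embryos of a genotype came from different litters, so p-values measure the spread between these 10 arches. Protein sequences were not analysed here.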

Additional observations from a re-analysis of the deposited data

Results flagged for a closer look

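For 9 of 102 sets of 5 values (a collagen gene, a chain ratio or the collagen share of counts, in 1 genotype), 1 arch stood apart from the other 4, its gap to the nearest being more than 0.71 of the whole range (Dixon's test at the 95% level). Chance gives about 1 in 20, or 5.1 of 102. Among Grhl2-/- arches, Col1a1 in replicate 4 was at 69.7 CPM with the next arch at 38.7 (gap 0.78 of the range), and Col11a2 in replicate 5 was at 5.60 with the next at 5.09 (0.711). Grhl2-/- replicate 3 was the highest for Col14a1 (0.796 CPM, next 0.579, gap 0.731), Col6a3 (27.6 CPM, next 12.7, gap 0.751) and Col28a1 (0.346 CPM, next 0.107, gap 0.77). Among wild-type arches, replicate 1 was the highest for Col9a1 (234 CPM, next 199, gap 0.717) and Col6a4 (0.318 CPM, next 0.108, gap 0.742). Col4a3 was at 0.0404 CPM in wild-type replicate 5 with the other arches between 0.227 and 0.288 (gap 0.755). The ratio of Col5a1 to Col5a2 was lowest in wild-type replicate 3, at 0.927 with the next at 1.105 (0.733).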

How the results depend on the processing

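Col4a5 and Col4a6 were called higher at FDR below 0.01 in all 10 fits that left out 1 arch and in all 11 other fits, and Col25a1 in all but the fit without wild-type replicates 1 and 2. DESeq2 called 8 collagen genes higher and 1 lower (3.57% and 3.80% of all genes), the sensory neuron covariate gave 5 higher and 0 lower (0.419% and 0.824% of all genes), and FDR 0.05 gave 9 higher and 1 lower, with 10 partner genes. Leaving out 1 arch gave 3 to 4 higher and 0 to 1 lower collagen genes (0.289% to 0.986% and 0.756% to 1.71% of all genes) and 4 to 6 partner genes. The other scalings and count filters gave 3 to 4 higher and 0 lower collagen genes. In those fits 0.631% to 0.927% of all genes were higher and at least 0.919% were lower. Without wild-type replicates 1 and 2, 2 collagen genes were higher and 0 lower (0.131% and 0.620% of all genes) and 2 partner genes were called. In those fits that left out 1 arch, FDR values of Col5a2, Col11a2, Col9a2, Col9a3 and Col22a1 reached 0.0767, 0.0905, 0.0679, 0.0521 and 0.0528, with no change of sign. Deviations of the 5 wild-type and Grhl2-/- pairs with the same label number correlated between -0.237 and 0.42, and 3 of 10 arches correlated best with an arch of their own number. Grhl2-/- replicates 2 and 5 had a number that no other arch carried and could not match. The labels do not say what the number is, and the paper states that controls were littermates where possible. This check cannot decide whether arches are paired, and the numbers were not taken as pairs in the fits without a block. With the number as a replicate block, 4 collagen genes were higher and 0 lower (0.412% and 0.474% of all genes) and 3 partner genes were called, without Loxl2 (log2 fold change 0.997, FDR 0.0156) and Nid2 (0.30, FDR 0.011), while Col9a3 was at -0.44 (FDR 0.0969) and Col11a2 at 0.37 (FDR 0.118). In that fit Grhl2-/- replicates 2 and 5, each alone in its block, did not contribute to the genotype estimate. The log2 fold change of Col3a1 was 0.05 with the block, of the other sign, and that of Col4a3 lay between -0.48 (without wild-type replicate 5) and 0.47 (sensory neuron covariate) over all fits that tested it, neither being called. The cause of these differences was not tested. Depth limits Col4a3, Col4a4, Col6a4, Col6a6 and Col28a1, with at most 15 counts in an arch.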
